A study of Anopheles stephensi with 4 samples.

Results

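The midgut and the Malpighian tubules of adult female Anopheles stephensi, a malaria mosquito, were compared gene by gene and isoform by isoform. A gene level was the sum of the FPKM (fragments per kilobase of transcript, scaled between libraries by the authors) over the assembled transcripts assigned to 1 reference gene. Of 12340 reference genes, 7886 had at least 1 FPKM and 20 estimated fragments in either tissue and were compared. The remaining genes are given no ratio. A gene was counted as different at a 4-fold or larger ratio of FPKM + 1, and 943 genes (12.0% of those compared) met this rule. Of these, 419 were higher in midgut (5.31%) and 524 were higher in Malpighian tubules (6.64%). The split depended on scaling: with both FPKM columns scaled to the same sum, 243 genes were higher in midgut (3.0% of 8102 compared) and 1192 in Malpighian tubules (14.7%).

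The study has 4 tissues, which are midgut, Malpighian tubules, fat body and ovary, with 1 library for each. All came from sugar-fed adult females kept at 27 °C in 70% humidity under a cycle of 12 h light and 12 h dark. No treatment, genotype or infection separates the groups, and the labels give neither the strain, the age nor the number of females pooled. The lanes of a library were technical repeats, so every difference below compares 2 libraries, has no replicate check and carries no p-value. The bounds printed beside a level are those of the authors, summed over the transcripts of a gene, and cover the estimate within 1 library only.

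The midgut is the part of the gut in which the meal is digested and absorbed, and its epithelium secretes digestive enzymes and the material of the peritrophic matrix. In a malaria mosquito it is also the first barrier that the parasite crosses. The Malpighian tubules open into the gut at the border of midgut and hindgut. They form the primary urine by pumping ions through a proton ATPase and cotransporters, with water following, and they excrete nitrogenous waste and foreign compounds. The deposited identifiers carry no gene names, and 0 of the 12340 identifiers matched the 15394 genes of the RefSeq table at hand. The tissue labels therefore could not be checked against defining markers, and no digestive enzyme or transporter is named here. Whether a gene is lower because fewer cells of a type were present or because each cell held less of its RNA cannot be told apart in bulk tissue.

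The midgut library held an estimated 27490192 fragments and the Malpighian tubule library 36316831. The FPKM columns summed to 1272696 in midgut and 603002 in Malpighian tubules, a ratio of 2.11. Leaving out all 943 differing genes lowered the ratio of the sums to 1.73. The median gene had 35.6 fragments behind each FPKM in midgut and 76.3 in Malpighian tubules, so a low value rests on fewer fragments in midgut. The status column marked 11 midgut transcripts as failed and 13 as overloaded, which means that the locus held too many fragments for an estimate. It marked 9 and 1 in Malpighian tubules. Genes with such transcripts are named below where a count rests on them.

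Most genes had similar levels in both tissues. With the deposited values 5352 of the 7886 genes (67.9%) lay within 2-fold of each other, and the median log2 ratio of midgut over Malpighian tubules was 0.06. The 5th and 95th percentiles of that log2 ratio were -2.38 and 2.04. At 1 FPKM or more, 7031 genes were detected in both tissues, 253 in midgut only and 761 in Malpighian tubules only. With equal sums the last 2 counts were 120 and 1273, and the median log2 ratio moved by -0.95 to -0.89.

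**Figure D1:**
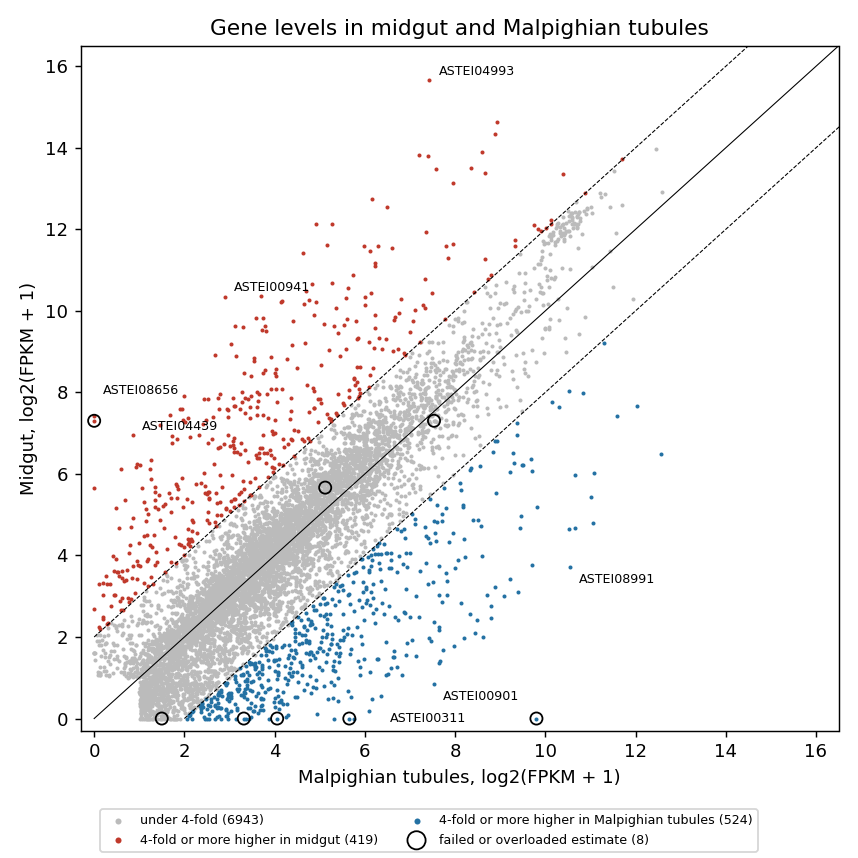
Each point is 1 of the 7886 compared genes, with log2(FPKM + 1) in Malpighian tubules on the horizontal axis and in midgut on the vertical axis. The solid line marks equal levels and the dashed lines the 4-fold limits. Red points (419) lie above the upper limit, blue points (524) below the lower one, and circles mark genes with a failed or overloaded estimate, 4 of which lie among the blue points at a midgut value of 0.

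The ratio moved with the level of the gene. Among the 3331 genes with a mean level of the tissues below 10 FPKM, 60 (1.8%) were 4-fold higher in midgut and 187 (5.61%) in Malpighian tubules. Among the 174 genes with a mean of 1000 FPKM or more the order was the opposite, with 40 (23.0%) higher in midgut and 8 (4.60%) in Malpighian tubules. The median log2 ratio was -0.21 in the lowest class, 0.18 from 10 to 100 FPKM, 0.55 from 100 to 1000 FPKM and 1.55 at 1000 FPKM or more. With equal sums the same medians were -1.02, -0.85, -0.52 and 0.48. The classes were set once from deposited values, and equal sums shift most ratios by a similar amount, so that scaling could not remove the increase. The mean that sets a class is made of the same values as the ratio, and how much of the increase this builds in was not tested. The sign of the 2 middle classes was not the same under both scalings.

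**Figure D2:**
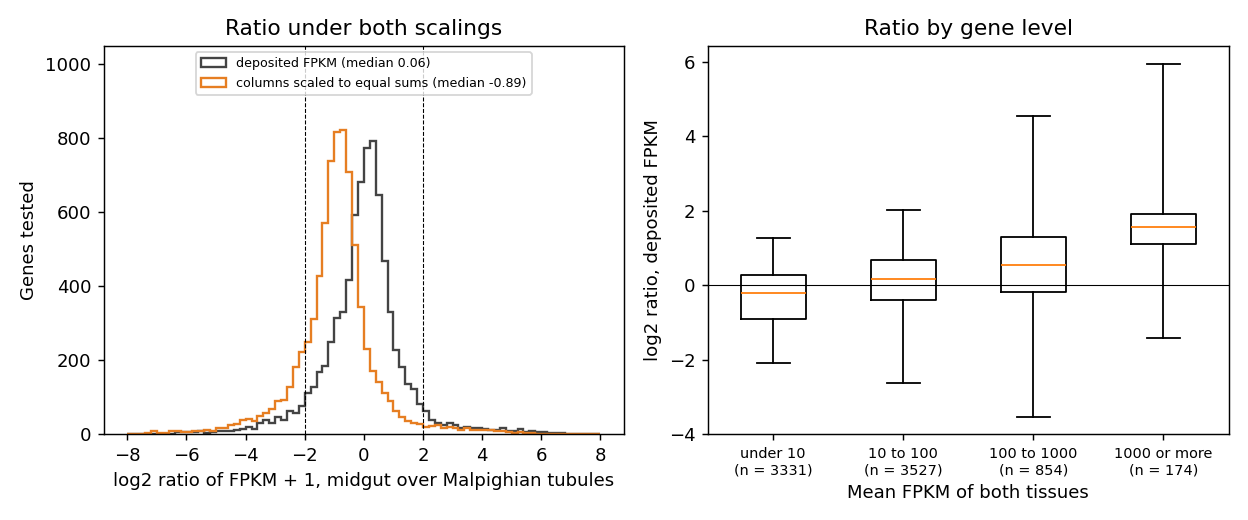
The left panel counts the 7886 compared genes by log2 ratio of FPKM + 1, midgut over Malpighian tubules, with deposited values and with equal column sums. Dashed lines mark 4-fold, and the outermost bins also hold genes past the axis. The right panel gives the deposited log2 ratio by mean FPKM of the tissues, with the median, the quartiles and whiskers at the 5th and 95th percentiles, and its medians run from -0.21 to 1.55.

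The 419 genes higher in midgut were chosen by a rule that itself favours a high midgut level. Their midgut levels ran from 3.59 to 51497 FPKM with a median of 122.7 FPKM, and their median in Malpighian tubules was 9.10 FPKM. Over all compared genes these medians were 12.1 and 12.4 FPKM. The 419 genes held 32.0% of the midgut FPKM sum and 28.2% of the midgut fragments, against 4.54% of the Malpighian tubule FPKM sum. The 10 most abundant of them alone held 14.8% of the midgut sum. The median ratio of FPKM + 1 was 9.10. It lay between 4 and 8 for 187 genes, between 8 and 16 for 96, between 16 and 32 for 68 and at 32 or more for 68. The gene just inside the limit had 599 FPKM in midgut and 149.0 FPKM in the tubules, and the gene just outside had 262 and 64.8 FPKM. The authors' bounds of the tissues did not overlap for 416 of the 419. Of the 419 genes, 243 also passed with equal sums, and the other 176 did not.

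Among genes with an estimate in midgut, the gene with the largest midgut ratio was also the most abundant gene of the midgut library. ASTEI04993 lies on scaffold_00027 from 571088 to 572030 on the plus strand and has 2 exons. It had 51497 FPKM in midgut (bounds 48195 to 54799), 172 FPKM in Malpighian tubules (154 to 189), 493 FPKM in fat body and 39.5 FPKM in ovary. Midgut was by far the highest, and fat body held more than the tubules. The ratio was 298 with deposited values and 142 with equal sums. ASTEI00941 is a single-exon gene of 2652 bases on scaffold_00003 from 4294951 to 4297602, plus strand. Its level was 1306 FPKM in midgut (1284 to 1329), 6.46 FPKM in Malpighian tubules (5.30 to 7.62), 13.0 FPKM in fat body and 3.24 FPKM in ovary. The ratio was 175, and 87.3 with equal sums. Both genes have 1 isoform at 1 FPKM or more, and no other transcript overlaps them.

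The midgut column of deposited values sums to 2.11 times that of the tubules. With those values the 524 genes higher in Malpighian tubules were on the whole less abundant in their own tissue. Their tubule levels ran from 3.17 to 6028 FPKM with a median of 31.5 FPKM, and their median in midgut was 2.14 FPKM. They held 13.0% of the tubule FPKM sum and 13.9% of the tubule fragments, and 0.481% of the midgut sum. The 10 most abundant held 4.51% of the tubule sum. The median ratio was 7.42, with 283 genes between 4 and 8, 138 between 8 and 16, 53 between 16 and 32 and 50 at 32 or more. The gene just inside the limit had 8.42 FPKM in Malpighian tubules and 1.35 FPKM in midgut, and the gene just outside had 10.9 and 1.97 FPKM. Bounds did not overlap for 519 of the 524. Equal sums kept all 524 and added 668, as that scaling can only raise the tubule side.

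Among genes with every transcript estimated, ASTEI08991 had the largest tubule ratio. It lies on scaffold_00080 from 80340 to 83218, minus strand, and its main isoform has 6 exons. It stood at 1491 FPKM in the tubules (1445 to 1537), 12.1 FPKM in midgut (8.51 to 15.7), 27.3 FPKM in fat body and 6.20 FPKM in ovary. The tubules were by far the highest. The ratio was 114, and 234 with equal sums. ASTEI00901, a gene of 7 exons on scaffold_00003 from 3645577 to 3664128, minus strand, had 185 FPKM in Malpighian tubules (177 to 192) and below 1 FPKM elsewhere. Its levels were 0.806 FPKM in midgut (0 to 1.86), 0.897 FPKM in fat body and 0.246 FPKM in ovary. The ratio was 103, and 181 with equal sums, and it rests on 37.1 estimated fragments in midgut against 18069 in Malpighian tubules. Its assembled locus holds a further reference gene, and 7 transcripts on the opposite strand overlap it. No source used here states whether the libraries were stranded, so part of its level could belong to those transcripts.

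A switch to below 1 FPKM was more frequent on the midgut side. Of the genes higher in midgut, 55 (0.697% of all compared genes and 13.1% of the 419) were below 1 FPKM in Malpighian tubules. Of those higher in Malpighian tubules, 166 (2.10% and 31.7% of the 524) were below 1 FPKM in midgut. With equal sums these counts were 25 and 386. Low midgut values were also the more frequent over all genes. Of all compared genes, 91.0% reached 1 FPKM in midgut and 97.7% in Malpighian tubules. Over all reference genes, 253 reached it in midgut only and 761 in Malpighian tubules only. The imbalance is thus not particular to the switched genes. The switched genes were of low abundance in the tissue that had them, with medians of 9.91 FPKM for the 55 and 9.09 FPKM for the 166. At 10 FPKM or more there were 27 and 72, and at 50 FPKM or more 6 and 7.

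Most of these genes were low and not listed at 0. The 55 genes had a median of 33.0 estimated fragments in Malpighian tubules, and 31 of them had 20 or more. The 166 genes had a median of 10.3 fragments in midgut, and 57 had 20 or more. Only 4 of the 55 and 18 of the 166 were listed at 0, and 1 and 4 of these had a failed or overloaded estimate. Of the 55, 27 were also below 1 FPKM in fat body and in ovary, and 8 were detected in both. Of the 166, 38 were below 1 FPKM in fat body and ovary, and 73 were detected in both. Over all compared genes, 270 (3.42%) were below 1 FPKM in fat body and ovary. Detection over all genes is given only for each tissue alone, at 94.9% in fat body and 90.9% in ovary.

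Leaving out the gene with an overloaded estimate, which had 157 FPKM in midgut, the genes of highest midgut level among the 55 were ASTEI08656 and ASTEI04439. ASTEI08656, with 2 exons on scaffold_00073 from 29755 to 30907, minus strand, had 171 FPKM in midgut (145 to 197) and 15.1 FPKM in ovary. Malpighian tubules and fat body were both listed at 0. It shares its assembled locus with a further reference gene, which leaves its level uncertain, and no ratio is given against the listed 0. ASTEI04439, with 4 exons on scaffold_00023 from 561864 to 567144, minus strand, had 123 FPKM in midgut (114 to 131). The other tissues were below 1 FPKM, at 0.826 FPKM in Malpighian tubules (0 to 1.73), 0.630 FPKM in fat body and 0.088 FPKM in ovary. Its ratio was 67.7, and 40.0 with equal sums, and 74.0 fragments stood behind the tubule value. A transcript on the opposite strand overlaps ASTEI04439, so part of its level could belong to that transcript.

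On the tubule side, again leaving out overloaded estimates, the gene of highest level after ASTEI00901 was ASTEI00311, on scaffold_00001 from 5022802 to 5026675, minus strand. It had 81.4 FPKM in the tubules (74.8 to 88.0), 0.459 FPKM in midgut (0.016 to 0.949), 0.947 FPKM in fat body and 0.311 FPKM in ovary. Malpighian tubules were thus the only one of the 4 tissues above 1 FPKM. The ratio was 56.5, and 95.4 with equal sums, from 17.4 fragments in midgut. Its assembled locus also holds a further reference gene.

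The largest tubule ratio of all rests on missing estimates. A locus on scaffold_00061 from 544703 to 564386 holds 13 transcripts of 6 reference genes, all of them overloaded in midgut and listed at 0 there. Their FPKM summed to 969 in the tubules, 1186 in fat body and 435 in ovary. Of these genes 4 were counted as higher in Malpighian tubules, including 1 with 893 FPKM there, the highest level among the 166 switched genes. The status of these transcripts means too many midgut fragments and not too few, so the listed 0 is not a measured low level. A gene on scaffold_00020 from 1513006 to 1515547 had the mirror case, with 157 FPKM in midgut, 307 FPKM in fat body and an overloaded estimate listed at 0 in Malpighian tubules. Without the genes at these loci, 418 genes were higher in midgut and 520 in Malpighian tubules. The 2 loci with failed estimates, on scaffold_00030 in midgut and scaffold_00058 in Malpighian tubules, held no differing gene.

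Levels in fat body and ovary were not used to choose the genes. The 419 genes higher in midgut had medians of 10.6 FPKM in fat body and 3.56 FPKM in ovary, and the 524 genes higher in Malpighian tubules 12.8 and 4.20 FPKM. Over all compared genes these medians were 12.6 and 13.4 FPKM. Ovary was thus the lower of the other tissues for both sets. Detection at 1 FPKM in ovary was 72.8% (305 genes) for the midgut set, 74.2% (389) for the tubule set and 90.9% for all compared genes. In fat body it was 89.3% (374), 89.5% (469) and 94.9%. Genes below 1 FPKM in both fat body and ovary made up 8.83% of the midgut set (37 genes), 8.40% of the tubule set (44) and 3.42% of all (270).

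The sets differed in which tissue had the highest level of the 4. For 391 of the 419 midgut genes it was midgut, for 26 fat body and for 2 ovary. For the tubule set it was Malpighian tubules for 336 of 524, fat body for 136 (26.0%) and ovary for 52 (9.92%). Over all 7886 compared genes, Malpighian tubules were highest for 1270 (16.1%), fat body for 1408 (17.9%) and ovary for 2810 (35.6%). Of the 166 genes below 1 FPKM in midgut, 98 were highest in the tubules, 51 in fat body and 17 in ovary. The 4-fold rule bars midgut from being highest in the tubule set, whereas midgut was highest for 2398 (30.4%) of all compared genes. It also favours Malpighian tubules there. In the same way it bars Malpighian tubules from being highest in the midgut set and favours midgut there. The shares of both sets are thus shaped by the rule and cannot be set directly against those of all genes. These orders hold for deposited values, in which the FPKM sums differ between tissues.

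**Figure D3:**
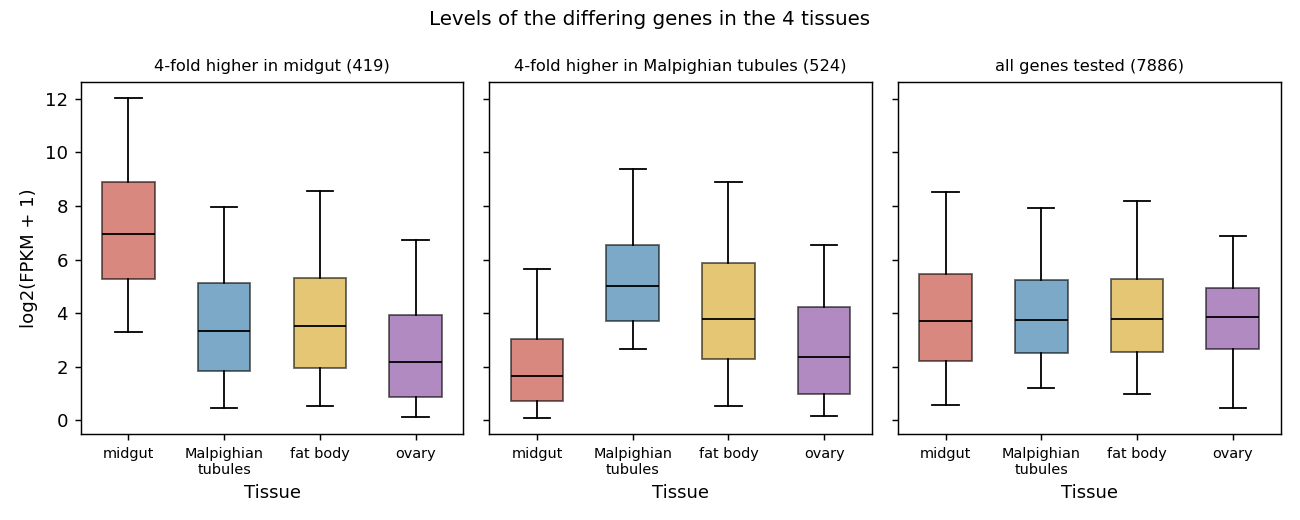
Boxes give log2(FPKM + 1) in the 4 tissues for the 419 genes higher in midgut, the 524 genes higher in Malpighian tubules and all 7886 compared genes, with the median, the quartiles and whiskers at the 5th and 95th percentiles. Midgut and Malpighian tubule boxes of the first 2 panels differ by the choice of genes. Fat body medians (10.6 and 12.8 FPKM) lie near that of all genes, and ovary medians (3.56 and 4.20 FPKM) lie below it.

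Gene structure was set beside that of all compared genes. Single-exon genes made up 9.31% of the midgut set (39), 5.34% of the tubule set (28) and 7.37% of all compared genes (581). The median length of the main isoform was 1598 bases for the midgut set, 1910.5 bases for the tubule set and 1851 bases for all. The most abundant isoform was the annotated one for 64.2% of the midgut set (269), 45.2% of the tubule set (237) and 52.5% of all (4137). At least 2 isoforms reached 1 FPKM in 48.4% of the midgut set (203), 51.3% of the tubule set (269) and 41.6% of all. A locus shared with a further reference gene, where the assignment of fragments is less certain, was held by 14.1% (59), 16.2% (85) and 12.8%.

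Length moved with the ratio on the midgut side. Of genes whose main isoform was under 1000 bases, 7.18% were higher in midgut, against 5.75% from 1000 to 2000 bases, 5.19% from 2000 to 4000 bases and 2.62% at 4000 bases or more. The shares higher in Malpighian tubules were 6.14%, 6.58%, 6.92% and 6.99%. The median log2 ratio ran from 0.32 in the shortest class to -0.22 in the longest. Among genes at 100 FPKM or more it was 0.89, 0.70, 0.38 and 0.48, with 54 genes in the longest class. The decrease with length was thus also present among abundant genes, apart from the longest class.

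Genes that differed had a neighbour of the same direction more often than all compared genes did. Neighbours were taken among compared genes only and at any distance on the scaffold, so other genes can lie between them. Of the 419 midgut genes, 103 (24.6%) had a neighbour on the scaffold that was also higher in midgut, against 9.31% (734) of all compared genes. Of the 524 tubule genes, 126 (24.0%) had such a neighbour higher in Malpighian tubules, against 11.8% (932). Of the midgut genes, 13.4% (56) had a neighbour higher in Malpighian tubules, against the 11.8% of all compared genes. Of the tubule genes, 10.9% (57) had a neighbour higher in midgut, against the 9.31% of all. Both shares lay nearer to those of all genes than the shares for the same direction did. Neighbours can share an assembled locus and thereby fragments. Counting only neighbours of the same direction in another assembled locus left 88 midgut genes (21.0%, against 8.83% of all) and 117 tubule genes (22.3%, against 11.3%).

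Runs of 3 or more such neighbours numbered 7 for midgut (25 genes) and 9 for Malpighian tubules (28 genes), and those described here were picked after their values were seen. On scaffold_00121, from 316387 to 325897, 3 genes of 2 exons each had 4473, 5978 and 4502 FPKM in midgut and 29.1, 89.1 and 37.8 FPKM in the tubules. One of them, on the minus strand, spans the others. The longest run held 5 genes on scaffold_00028 from 1667369 to 1742841, with 14.9, 193, 107, 41.5 and 58.0 FPKM in midgut and 0.328, 5.84, 2.30, 2.60 and 1.41 FPKM in the tubules. These genes are not all adjacent, as ASTEI05135 ends at 1679724 and the next, ASTEI05140, begins at 1740000. The bounds of midgut and Malpighian tubules did not overlap for any gene of these runs. On scaffold_00127, from 19427 to 33221, 4 genes had 119, 1280, 2986 and 726 FPKM in midgut and 3.34, 46.6, 96.2 and 12.9 FPKM in the tubules. A run of 4 on scaffold_00042 from 1508536 to 1525509 had 183, 173, 74.7 and 904 FPKM in midgut and 26.0, 2.20, 0.934 and 12.3 FPKM in the tubules. All 4 genes of that run share an assembled locus with a further reference gene, and 3 of them passed 4-fold with equal sums.

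Among the tubule runs, 3 genes on scaffold_00023 from 951237 to 1052564 had 2153, 3059 and 6028 FPKM in Malpighian tubules and 63.6, 171 and 89.3 FPKM in midgut. A wide gap lies before the last gene, from 954488 to 1051911. The last of these is covered by a transcript of the opposite strand with 7855 FPKM in Malpighian tubules, so its own level is uncertain. On scaffold_00017, from 2040450 to 2081569, 3 genes had 48.0, 256 and 4177 FPKM in Malpighian tubules and 3.69, 11.9 and 204 FPKM in midgut. In fat body the genes of these runs had 50.02 to 157 FPKM and 2.06 to 86.9 FPKM, each below its own tubule level. The run of 4 on scaffold_00029 from 1380941 to 1414944 was of another kind: its Malpighian tubule levels were 1138, 20.4, 4.08 and 10.5 FPKM, its midgut levels 215, 1.79, 0.248 and 0.898 FPKM and its fat body levels 90.8, 226, 15.7 and 148 FPKM. The last 3 of these genes were highest in fat body. The run on scaffold_00061 is the overloaded locus described above.

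**Figure D4:**
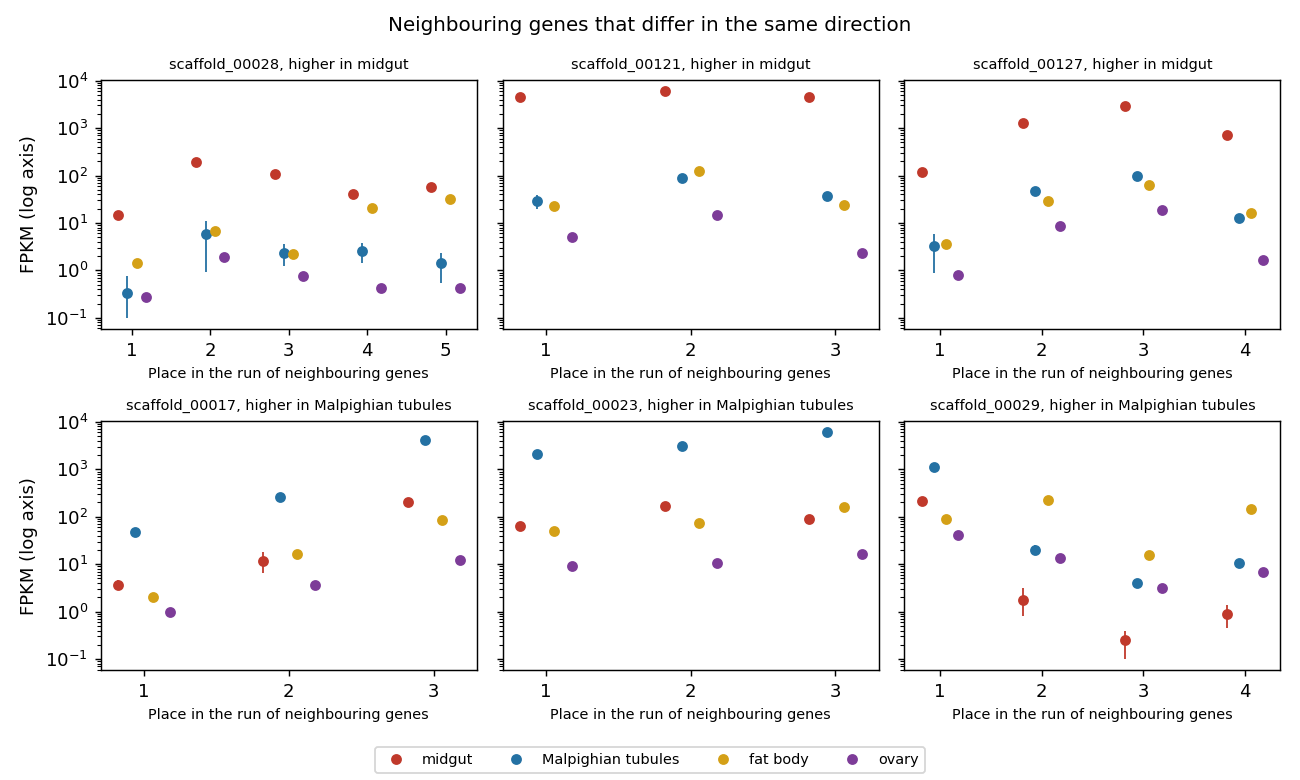
FPKM on a log axis for each gene, in order along the scaffold, of 3 runs higher in midgut (top) and 3 higher in Malpighian tubules (bottom), in the 4 tissues. Vertical lines are the authors' bounds in midgut and Malpighian tubules, and values under 0.1 FPKM are drawn at 0.1. In the runs on scaffold_00121 and scaffold_00023 a single tissue stands far above the other 3, while fat body is highest for 3 of the 4 genes on scaffold_00029.

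Isoform use was compared as the share of each isoform in its gene level, which a scaling of the whole library leaves the same. Of 5051 genes at 5 FPKM or more in both tissues, 2837 had 2 or more isoforms above 0. The largest difference in the share of any isoform had a median of 7.16 percentage points, and for 1714 genes (60.4%) it was under 10 points. It reached 10 points in 1123 genes, 20 in 485, 30 in 263, 50 in 78 (2.75%) and 70 in 20. The largest difference of any gene was 97.9 points, and the values next to the limit of 50 were 50.3 and 49.8 points. A different isoform held at least 60% of the gene level in each tissue in 52 genes (1.83%), and 37 genes met both rules. Without the 60% limit, the most abundant isoform differed in 459 genes.

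Gene levels were set beside the isoform shares. Of the 52 genes, 10 (19.2%) differed 4-fold in gene level, with 3 higher in midgut and 7 in Malpighian tubules, against 259 (9.13%) of the 2837. The gene level lay within 2-fold in 23 of the 52 (44.2%), in 36 of the 78 (46.2%) and in 2063 of the 2837 (72.7%). In 56 genes (1.97%) an isoform 4-fold higher in midgut stood beside an isoform 4-fold higher in Malpighian tubules, and the gene level of 32 of these was within 2-fold. Several reference genes shared the assembled locus in 13 of the 52 (25%), 24 of the 78 (30.8%) and 434 of the 2837 (15.3%). In such a locus the isoforms may be parts of neighbouring genes.

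The 52 isoform pairs differed in several ways. In 34 genes (65.4%) the isoforms had different start labels in the annotation, while the 2 most abundant isoforms did so in 2214 of the 2837 genes (78.0%). These labels belong to transcript models, and no start was measured. The introns of the pair differed by 1 or 2 in 17 genes, had none in common in 7 and were never all the same. The spans did not overlap in 5 genes. The annotated isoform was the main one in midgut in 16 genes, in Malpighian tubules in 6 and in neither tissue in 30. The authors' bounds of both isoforms were apart between the tissues in 28 genes, of which 22 were alone in their locus. In fat body the main isoform was that of Malpighian tubules in 30 of the 52, that of midgut in 15 and another in 2, with 5 genes too low to say. In ovary it was that of Malpighian tubules in 26, that of midgut in 14 and another in 4, with 8 too low. No share over the 2837 genes stands beside the counts of annotated, fat body and ovary isoforms. Whether they are particular to the 52 genes cannot be told from them.

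Of the genes alone in their locus with separate bounds, the largest differences between isoforms of different start labels were in ASTEI00428 and ASTEI07888. For ASTEI00428 on scaffold_00002, plus strand, ANSTF.386.3 (1106325 to 1116134, 20 exons) held 94.2% of the gene level in midgut at 246.7 FPKM (241 to 253) and 2.26% in Malpighian tubules at 33.4 FPKM. ANSTF.386.1 (1092655 to 1103852, 11 exons) held 3.44% in midgut at 9.02 FPKM and 96.4% in Malpighian tubules at 1425 FPKM (1394 to 1456). Fat body and ovary were like the tubules, with 75.4% and 67.8% for ANSTF.386.1. The isoforms lie one after the other with a gap of 2472 bases. The annotated model of 28 exons, from 1093249 to 1115770, joins parts of both and held 2.40% in midgut and 1.33% in Malpighian tubules. Whether the isoforms are 1 gene or 2 adjoining ones was not tested.

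For ASTEI07888 on scaffold_00059, minus strand, ANSTF.7291.1 (960321 to 961245, 2 exons) held 89.7% in midgut at 111 FPKM and 0.36% in Malpighian tubules. ANSTF.7291.5 (965053 to 970094, 4 exons) held 4.38% in midgut at 5.42 FPKM and 64.8% in Malpighian tubules at 69.0 FPKM, and ANSTF.7291.2 held a further 31.0% there. Again the spans of the main isoforms do not overlap, with a gap of 3807 bases. In ovary another isoform, ANSTF.7291.4, held 88.2%. The gene levels, 124.0 FPKM in midgut and 106.4 FPKM in the tubules, were close to each other.

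The largest differences between isoforms with the same start label were in ASTEI05012 and ASTEI07229, and here the exons show what differed. For ASTEI05012 on scaffold_00027, plus strand, ANSTF.4663.5 (8 exons) held 92.8% in midgut at 143.5 FPKM (138 to 149), and in Malpighian tubules it was listed at 0. ANSTF.4663.3 (7 exons) held 1.27% in midgut at 1.96 FPKM and 82.6% in Malpighian tubules at 203.7 FPKM (198 to 210). They share 6 introns and differ in 1, from 1028590 to 1029078, which is 489 bases long. It is spliced out in the main midgut isoform and kept within the last exon of the main tubule isoform. Fat body was like the tubules, with 72.8% for ANSTF.4663.3, and in ovary ANSTF.4663.6 held 85.6%.

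For ASTEI07229 on scaffold_00051, plus strand, both isoforms have 9 exons and share 7 introns. ANSTF.6688.1 held 95.5% in midgut at 27.9 FPKM (25.01 to 30.7) and 13.8% in Malpighian tubules at 1.96 FPKM. ANSTF.6688.2 held 0.46% in midgut at 0.14 FPKM and 86.1% in Malpighian tubules at 12.3 FPKM (10.2 to 14.3). The exon that begins at 249905 ends at 250872 in the main midgut isoform and at 251073 in the main tubule isoform, where it is 201 bases longer. Ovary was like the tubules, with 90.5% for ANSTF.6688.2. In fat body the isoforms held 50.1% and 49.9%, but of a gene level of only 3.84 FPKM. That is below the 5 FPKM asked of midgut and Malpighian tubules, so the fat body shares are uncertain. The reading frames were not analysed here.

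**Figure D5:**
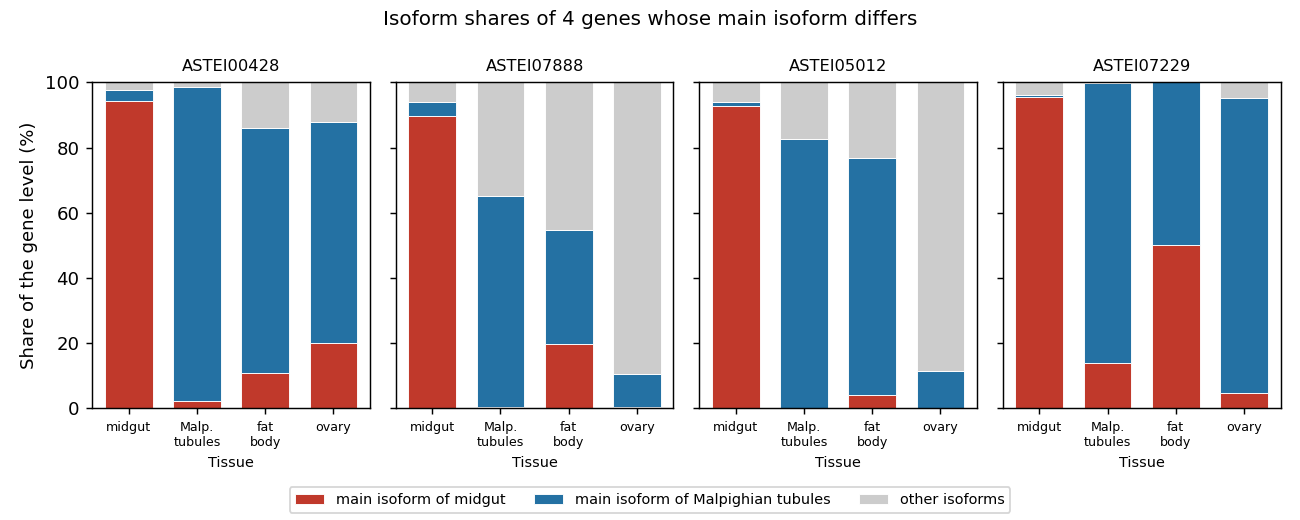
Bars show, for 4 genes and 4 tissues, the share of the gene level (%) held by the main isoform of midgut, the main isoform of Malpighian tubules and all other isoforms. The midgut isoform holds 89.7% to 95.5% in midgut, and the tubule isoform 64.8% to 96.4% in Malpighian tubules.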

How the data were processed

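RNA of 4 tissues, 1 library each, was read as paired-end sequences on 2 lanes, per the labels. The submitters' processing notes name CASAVA 1.8, HISAT2, StringTie 1.2.1 and Cuffdiff. A genome build is not given in the sources used here. The authors deposited FPKM with bounds and a status for 25785 transcripts. The authors' deposited count values are a scaled signal rather than raw counts: low values are sums of 2 steps, 1 per lane, and dividing by the mean step gave the estimated fragments. FPKM were summed per reference gene over transcripts that match the annotated one, share a junction with it, overlap its exons on its strand or are a single exon within it. Ratios were taken with a pseudocount of 1 FPKM, which understates the change of low genes, among genes with 1 FPKM and 20 fragments in either tissue. Columns were also scaled to their mean sum (factors 0.737 for midgut and 1.56 for Malpighian tubules). With 1 library per tissue no p-value was computed. The code that makes the calls was checked on simulated tables.

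Genes are identified by the deposited annotation, with 1-based scaffold positions. Those named are the 2 per direction with the largest ratio of deposited values among genes that pass 4-fold under both scalings, and the 2 of highest level that were below 1 FPKM in the other tissue, all without failed or overloaded transcripts, and 4 genes whose main isoform differs. The genes, rules and lists were chosen with earlier results of these data known. Python 3.11.15, pandas 2.3.3, numpy 2.4.6 and matplotlib 3.10.9 were used.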

Additional observations from a re-analysis of the deposited data

Results flagged for a closer look

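Signal was also present in transcripts outside the gene sums, in data that the comparison above did not use. At 1 FPKM or more in midgut or Malpighian tubules there were 211 of 264 opposite-strand transcripts. Of these, 16 (7.58%) were 4-fold higher in midgut and 12 (5.69%) in Malpighian tubules, against 5.31% and 6.64% of the compared genes. Inside introns there were 55 of 82, with 8 (14.5%) and 6 (10.9%). Just past a gene end there were 241 of 324, with 7 (2.90%) and 17 (7.05%). Intergenic transcripts made the largest group, 1876 of 2696, with 111 (5.92%) higher in midgut and 135 (7.20%) in Malpighian tubules. They held 5.00% of the midgut FPKM sum and 6.04% of the tubule sum. In repeats there were 218 of 359, with 10 (4.59%) and 7 (3.21%).

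The intronic transcript of highest midgut level, ANSTF.7396.1 (scaffold_00061, 488287 to 490201), had 5767 FPKM in midgut and 173 FPKM in the tubules. The opposite-strand transcript ANSTF.8062.1 had 1078 and 528 FPKM, and ANSTF.4175.1, which covers the last gene of the tubule run on scaffold_00023, had 88.3 and 7855 FPKM.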

How the results depend on the processing

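Of 60 counts under alternative settings, 29 stayed within 1.5 times the reported count. Counts below are given as genes higher in midgut, higher in Malpighian tubules, switched off in Malpighian tubules and switched off in midgut. Equal sums gave 243, 1192, 25 and 386. Equal sums taken without the 100 genes of highest mean (a log2 shift of -0.56) gave 305 and 774, within that range, and 34 and 251 switched off. A pseudocount of 0.1 FPKM gave 516, 872, 112 and 439, a fold of 2 gave 1168, 1366, 115 and 452, and a fold of 8 gave 232, 241, 24 and 71. Switched-off counts were 28 and 107 below 0.5 FPKM and 91 and 252 below 2 FPKM. Genes with a different main isoform and with a difference of 50 points numbered 25 and 44 at 20 FPKM per gene, 91 and 130 at 1 FPKM, and 28 and 50 with bounds that do not overlap. A main isoform share of 50% gave 222 genes and 80% gave 5, and a difference of 30 points gave 263 and 70 points gave 20. A stricter or looser limit moves a count by its construction, and the cause of the difference between the FPKM sums was not tested. None of the 18 alternative log2 ratios of the named genes changed sign, and their sizes ran from 5.32 to 8.23. The choice of these genes fixed this in advance, as they had large ratios and passed 4-fold under both scalings. No paired analysis was possible because each tissue has 1 library, and for the same reason no replicate could be left out. Depth limits the low values most, above all in midgut, where 1 FPKM rests on fewer fragments.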
